A study of Mus musculus with 7 samples.

Results

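The genes described here encode 53 enzymes of amino acid catabolism, picked by gene symbol from the 56691 genes in a count table of mouse liver. The symbols covered the breakdown of aromatic, sulfur, branched-chain and other amino acids, the kynurenine path and the transaminases. All 53 were found in the table, and all 53 passed the filter on low counts and were among the 13683 genes tested. No member had fewer than 62 counts in any sample.

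Liver is the main organ in which surplus amino acids are broken down: transaminases, dehydratases and ammonia-lyases release the nitrogen, and the carbon skeletons feed glucose synthesis, ketone bodies or the citric acid cycle. The same enzymes make other products, since tryptophan breakdown yields kynurenine and a precursor of NAD, the methionine cycle yields the methyl donor S-adenosylmethionine, and cysteine breakdown yields taurine. Tyrosine aminotransferase and tryptophan dioxygenase are textbook examples of liver enzymes whose transcription responds to glucocorticoids.

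The samples were livers of male C57BL/6J mice, an inbred strain, bought at 8 weeks of age and housed for 2 weeks. LPS treated mice received LPS, the endotoxin of Gram-negative bacteria, at 10 mg/kg and were killed 24 h later, while the labels call the other mice control and name no vehicle for them. The comparison asks which transcripts differ in liver after a dose of endotoxin that injures it. The study kept 6 mice in each group and also gave sulforaphane to some mice before LPS, but the files hold 4 control mice, 3 LPS treated mice and no mouse given sulforaphane.

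The 4 control libraries, in order of replicate, held 14991022, 15096573, 15721944 and 18584140 counts, and the 3 LPS libraries held 20500391, 17095607 and 17821331. Levels are given as CPM on a library size scaled by TMM, and 3 counts were worth between 0.138 and 0.212 CPM. In order of replicate, mitochondrially encoded genes took 23.7%, 14.6%, 7.48% and 8.96% of each control library and 6.45%, 3.83% and 3.94% of each LPS library. LPS replicates 2 and 3 were unusually alike. The SD of their log2 ratio over 1729 highly counted genes was 0.10, against 0.29 to 0.575 in the other pairs of mice of the same group, and 0.11 over the members. Among control mice, replicate 1 was closest to replicate 2 (SD 0.30) and replicate 3 to replicate 4 (SD 0.29). All values rest on the label of LPS replicates 2 and 3 as separate mice, and the counts of members that were higher and lower are also given with both summed into 1 sample.

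The members moved in both directions after LPS. At an adjusted p below 0.05 in edgeR's quasi-likelihood test, 16 of the 53 (30.2%) were higher, against 13.3% of all genes tested, and 15 (28.3%) were lower, against 13.0%. The genes that passed are called higher or lower in what follows. In either direction 31 members passed (58.5%, against 26.3%). More than 2-fold changes were less even: 12 members were higher by more than 2-fold (22.6%, against 7.81% of all genes) and 5 were lower by more than 2-fold (9.43%, against 7.31%). Under total counts these were 9 higher and 6 lower. The log2 fold changes of the members ran from -1.77 to 4.01 with a median of -0.11, and that of all genes tested was -0.01. The groups did not overlap in 14 members that were above the controls in all LPS treated mice (18.1% of all genes tested) and in 19 that were below them (17.4%), and they overlapped in 20. Of the members without overlap, 6 did not pass the test. Without LPS replicate 3 only 9 members were lower. The count over all genes that were lower fell from 1773 to 1146 without LPS replicate 2 and to 1159 without LPS replicate 3. With LPS replicates 2 and 3 summed, 10 members were lower and 12 were higher, and over all genes tested 1195 were lower and 1348 higher. Scaling by total counts in place of TMM moved the median of all genes tested to -0.13 and that of the members to -0.23. It gave 14 members higher and 17 lower, beside 1350 genes higher and 2057 lower, where TMM gave 1825 higher and 1773 lower.

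**Figure D1:**
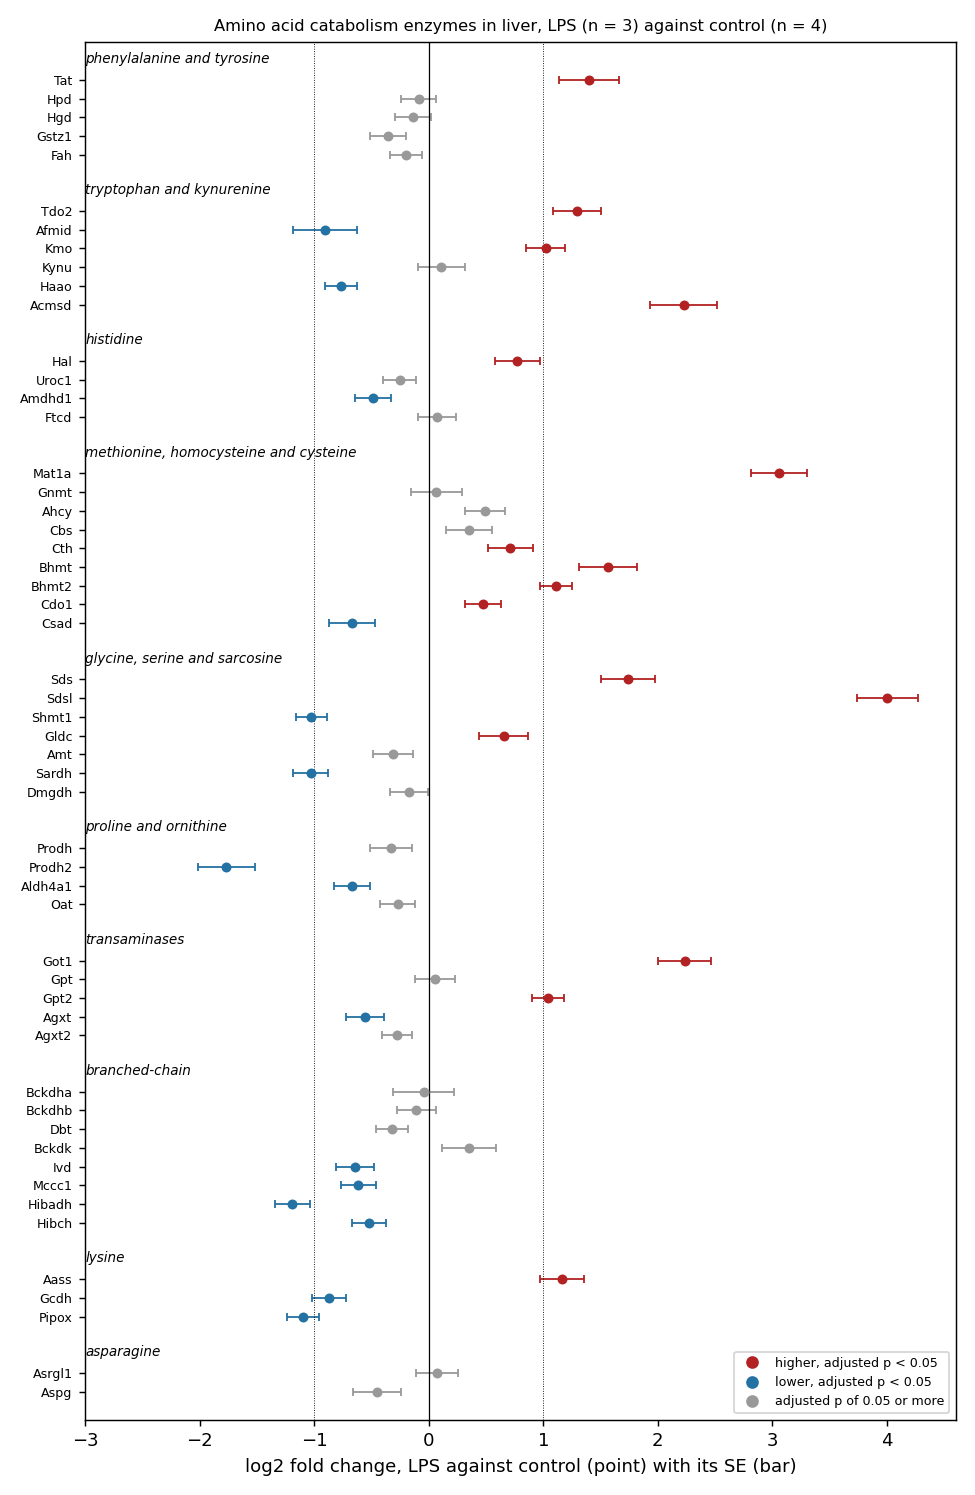
Log2 fold change of each of the 53 members in LPS treated mice (n = 3) against control mice (n = 4), with the SE as a bar, by amino acid group. Red points passed the test and were higher, blue points passed and were lower, and the points run from Prodh2 at -1.77 to Sdsl at 4.01.

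The members together took more of the library after LPS. They held 1.89%, 2.17%, 1.95% and 2.39% of all counts in control replicates 1 to 4 and 3.23%, 3.69% and 3.65% in LPS replicates 1 to 3. Summed over the members, the level was 20070, 20650, 18770 and 21510 CPM in control mice and 30540, 40610 and 40520 CPM in LPS treated mice. The groups did not overlap, and the mean was 1.84 times as high. Bhmt and Mat1a carried most of that difference. Without them the sum was 14670, 16310, 16000 and 17200 CPM in control mice and 17410, 22050 and 22020 CPM in LPS treated mice, with a ratio of means of 1.28.

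Order by level per kilobase of exon changed too. On the scale of CPM per kilobase, cysteine dioxygenase Cdo1 was the most abundant member in control mice at 1027 and Hpd was next at 655. In LPS treated mice Mat1a led at 1909 CPM per kilobase, from rank 9 in control mice, and Bhmt followed at 1756. By the same scale 7 members rose by 10 ranks or more (Kmo, Bhmt2, Sds, Sdsl, Got1, Gpt2 and Aass) and 7 fell by as many (Haao, Shmt1, Sardh, Prodh2, Agxt, Hibadh and Pipox). Sdsl went from rank 51 to rank 26 and Got1 from rank 40 to rank 11, while Prodh2 went from rank 26 to rank 46.

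**Figure D2:**
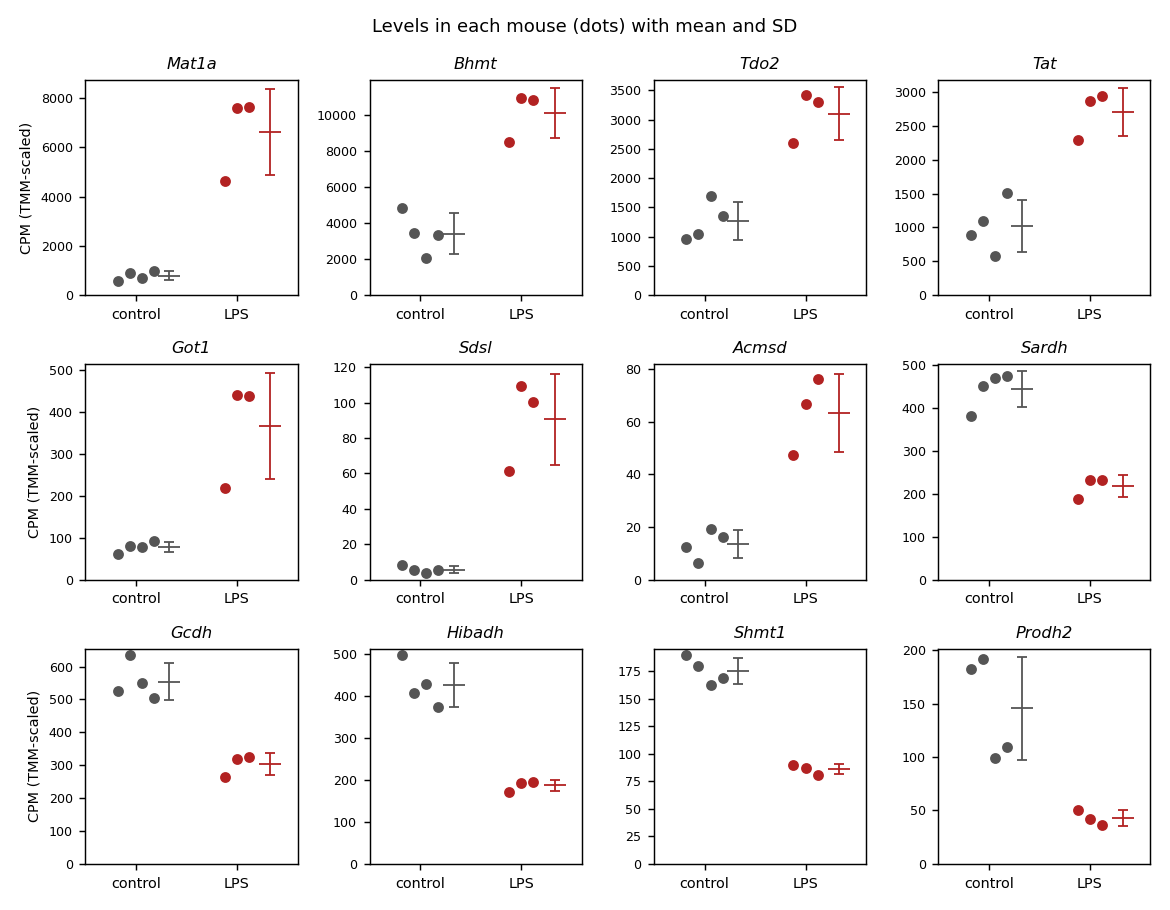
Level in CPM of 12 members in each of 4 control mice (grey) and 3 LPS treated mice (red), with the group mean and SD beside the points. All 12 have no overlap between the groups, and in all but Shmt1 and Prodh2 the lowest LPS value is that of replicate 1.

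Methionine, homocysteine and cysteine enzymes held the largest sum and the largest shift in it: 5 of the 9 were higher, 1 was lower and 3 did not pass, with a median log2 fold change of 0.49. Mat1a (ENSMUSG00000037798) encodes the liver form of methionine adenosyltransferase, which makes S-adenosylmethionine. Levels of Mat1a came to 576, 896, 714 and 995 CPM in control mice and 4625, 7611 and 7625 CPM in LPS treated mice. Every LPS treated mouse was above the highest control mouse, and LPS replicate 1 was the lowest of its group. The group means were 795 ± 186 CPM (SD, n = 4) and 6620 ± 1728 CPM (SD, n = 3), and the log2 fold change was 3.06 (SE 0.24, adjusted p = 1.71e-06). Bhmt (ENSMUSG00000074768) encodes betaine-homocysteine methyltransferase, which remakes methionine from homocysteine with a methyl group of betaine. The level of Bhmt was 4830, 3445, 2056 and 3319 CPM in control mice and 8503, 10950 and 10870 CPM in LPS treated mice. The control mice spread over a wider relative range than the LPS treated mice, and the groups did not overlap. Bhmt gave 1.57 (SE 0.26, adjusted p = 0.000638) as its log2 fold change. Bhmt2, whose enzyme methylates homocysteine with S-methylmethionine, is the neighbour of Bhmt. In control mice Bhmt2 was at 183, 187, 157 and 199 CPM, and in LPS treated mice it was at 345, 422 and 410 CPM. The groups lay apart and varied little within themselves. Bhmt2 changed by 1.11 (SE 0.14, adjusted p = 0.000106) on the log2 scale.

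Among the enzymes that make cysteine or break it down, Cth and Cdo1 were higher and Csad was lower. Cth encodes cystathionine gamma-lyase, which releases cysteine from cystathionine. Cth measured 243, 226, 215 and 293 CPM in the controls, against 272, 488 and 441 CPM after LPS. LPS replicate 1 lay within the control range, and the other LPS treated mice were above it. For Cth the log2 fold change was 0.71 (SE 0.20, adjusted p = 0.0185). Cdo1, which oxidises cysteine to cysteine sulfinate, was higher in all 3 LPS treated mice than in any control mouse, with a smaller log2 fold change of 0.47 (SE 0.15, adjusted p = 0.0394). Csad encodes the decarboxylase of the next step toward taurine and went the other way. Csad stood at 240, 280, 279 and 412 CPM in control mice and at 228, 174 and 168 CPM in LPS treated mice. All 3 LPS treated mice were below all control mice, with LPS replicate 1 close to control replicate 1. The log2 fold change of Csad was -0.67 (SE 0.20, adjusted p = 0.0241). Gnmt, which uses S-adenosylmethionine to methylate glycine, Ahcy, which hydrolyses S-adenosylhomocysteine, and Cbs, which joins homocysteine and serine, did not pass, with log2 fold changes of 0.07, 0.49 and 0.35. Ahcy had an adjusted p of 0.0536 and no overlap between the groups, and it passed as higher in 4 of the 16 alternatives, among them DESeq2 (0.0229), no filter (0.0427) and the fit without control replicate 3 (0.0265). The calls of Cth, Cdo1 and Csad were each lost without LPS replicate 2 and without LPS replicate 3. Cth was also lost without control replicate 2, Cdo1 without control replicate 1, 3 or 4, and Csad without control replicate 4. All 3 were lost with LPS replicates 2 and 3 summed, and Cdo1 also under total counts (adjusted p = 0.136) and no filter (adjusted p = 0.0689). Blocking on replicate number, without control replicate 4, also lost Cdo1 (adjusted p = 0.0773) and Csad (adjusted p = 0.0667). The largest adjusted p with 1 mouse left out was 0.117 for Cth, 0.152 for Cdo1 and 0.12 for Csad.

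In the breakdown of glycine, serine and sarcosine, 3 of the 7 members were higher, 2 were lower and 2 did not pass, with a median log2 fold change of -0.17. Sdsl (ENSMUSG00000029596), a relative of serine dehydratase, had the largest log2 fold change of all members. Levels of Sdsl came to 8.35, 5.11, 3.79 and 5.37 CPM in control mice and 61.4, 110 and 101 CPM in LPS treated mice. It was a scarce transcript in each control mouse, and no LPS treated mouse came near the control range. Means were 5.66 ± 1.93 CPM (SD, n = 4) and 90.5 ± 25.6 CPM (SD, n = 3), and the log2 fold change was 4.01 (SE 0.26, adjusted p = 3.37e-07). Sds encodes serine dehydratase, which turns serine into pyruvate and ammonia. The level of Sds was 69.1, 68.0, 53.6 and 95.0 CPM in control mice and 153, 293 and 271 CPM in LPS treated mice. The groups did not overlap, and LPS replicate 1 was again the lowest of its group. Sds gave 1.74 (SE 0.23, adjusted p = 0.000143) as its log2 fold change. Gldc, the glycine decarboxylase of the glycine cleavage system, was also higher (log2 fold change 0.65, SE 0.21, adjusted p = 0.0387), although LPS replicate 1 lay within the control range. Its call was lost without control replicate 1 or 2 and without LPS replicate 2 or 3, where the adjusted p reached 0.156. It was lost under total counts too (log2 fold change 0.51, adjusted p = 0.11), and with LPS replicates 2 and 3 summed (adjusted p = 0.142).

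Sardh and Shmt1 were the members of that group that were lower. Sardh (ENSMUSG00000009614) encodes sarcosine dehydrogenase, which strips the methyl group from sarcosine in mitochondria. In control mice Sardh was at 381, 450, 470 and 473 CPM, and in LPS treated mice it was at 187, 232 and 232 CPM. Each LPS treated mouse was well under the lowest control mouse. Sardh changed by -1.03 (SE 0.15, adjusted p = 0.000298) on the log2 scale. Shmt1 encodes cytosolic serine hydroxymethyltransferase, which interconverts serine and glycine and loads folate with a carbon unit. Shmt1 measured 190, 180, 162 and 169 CPM in the controls, against 90.1, 87.4 and 80.7 CPM after LPS. Both groups were tight and far apart. For Shmt1 the log2 fold change was -1.03 (SE 0.13, adjusted p = 0.000121). Dmgdh, the dehydrogenase that makes sarcosine from dimethylglycine, and Amt, the aminomethyltransferase of the glycine cleavage system, did not pass, with log2 fold changes of -0.17 and -0.31. An antisense gene, Sardhos, overlaps Sardh, and Sardh shared 4.74% of its windows of 50 bases with Sardhos and Gm49011. The strand setting of the counting was not given, so reads in that shared stretch could not be assigned to either gene.

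Tryptophan and kynurenine enzymes went both ways along the path: 3 of the 6 were higher, 2 were lower and 1 did not pass, with a median log2 fold change of 0.57. Tdo2 (ENSMUSG00000028011) encodes tryptophan dioxygenase, the entry step of tryptophan breakdown in liver. Tdo2 stood at 966, 1047, 1688 and 1356 CPM in control mice and at 2594, 3416 and 3302 CPM in LPS treated mice. No LPS treated mouse was under 2594 CPM and no control mouse was over 1688 CPM. The log2 fold change of Tdo2 was 1.30 (SE 0.21, adjusted p = 0.000638). Afmid encodes the formamidase that releases kynurenine. Levels of Afmid came to 12.0, 16.7, 25.5 and 26.9 CPM in control mice and 14.1, 9.15 and 9.21 CPM in LPS treated mice. Control replicate 1 was below LPS replicate 1, so the groups overlapped. Afmid gave -0.91 (SE 0.28, adjusted p = 0.0295) as its log2 fold change. That call was lost with LPS replicates 2 and 3 summed, without control replicate 3 or 4 and without LPS replicate 2 or 3, with an adjusted p of up to 0.121. Kmo, which hydroxylates kynurenine at the mitochondrial outer membrane, was higher in every LPS treated mouse (log2 fold change 1.02, SE 0.17, adjusted p = 0.000709). Kynu, the kynureninase, did not pass (log2 fold change 0.11).

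Further down the same path, the branch enzymes moved apart. Haao encodes the dioxygenase that makes the precursor of quinolinate, from which NAD can be built. The level of Haao was 355, 374, 308 and 352 CPM in control mice and 190, 213 and 207 CPM in LPS treated mice. All LPS treated mice were below all control mice. Haao changed by -0.77 (SE 0.14, adjusted p = 0.0013) on the log2 scale. Acmsd (ENSMUSG00000026348) encodes the decarboxylase that takes the product of Haao away from quinolinate and toward oxidation. In control mice Acmsd was at 12.5, 6.44, 19.1 and 16.1 CPM, and in LPS treated mice it was at 47.2, 66.7 and 76.3 CPM. The lowest LPS treated mouse was above the highest control mouse, and control replicate 2 was the lowest of all. For Acmsd the log2 fold change was 2.22 (SE 0.29, adjusted p = 0.000108).

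Transaminases were divided by isoenzyme, with 2 of the 5 higher, 1 lower and 2 not passing, and a median log2 fold change of 0.05. Got1 (ENSMUSG00000025190) encodes the cytosolic aspartate aminotransferase. Got1 measured 61.4, 80.5, 76.7 and 91.9 CPM in the controls, against 219, 440 and 437 CPM after LPS. The groups did not overlap, and LPS replicate 1 lay between the control mice and the other LPS treated mice. The log2 fold change of Got1 was 2.23 (SE 0.23, adjusted p = 1.57e-05). Gpt2 encodes the mitochondrial alanine aminotransferase. Gpt2 stood at 221, 247, 204 and 249 CPM in control mice and at 446, 477 and 497 CPM in LPS treated mice. Values within each group were close, and the groups were far apart. Gpt2 gave 1.04 (SE 0.14, adjusted p = 0.000131) as its log2 fold change. Gpt encodes its cytosolic counterpart. Levels of Gpt came to 112, 146, 122 and 141 CPM in control mice and 100, 152 and 154 CPM in LPS treated mice. The groups overlapped, and the log2 fold change of 0.05 did not pass (SE 0.18, adjusted p = 0.861). Agxt, which converts glyoxylate to glycine with alanine as the amino donor, was the member that was lower. The level of Agxt was 176, 226, 186 and 206 CPM in control mice and 106, 149 and 150 CPM in LPS treated mice. No LPS treated mouse reached the control range. Agxt changed by -0.56 (SE 0.16, adjusted p = 0.0248) on the log2 scale. The call of Agxt was lost without control replicate 2 or 4 and without any 1 of the LPS replicates, and with LPS replicates 2 and 3 summed, with an adjusted p of up to 0.0976. Agxt2 encodes a mitochondrial aminotransferase of glyoxylate. In control mice Agxt2 was at 201, 208, 186 and 186 CPM, and in LPS treated mice it was at 163, 156 and 164 CPM. Its groups did not overlap, but the log2 fold change of -0.28 did not pass (adjusted p = 0.139).

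In the breakdown of tyrosine, the first enzyme was higher and the 4 that follow it did not pass. Tat (ENSMUSG00000001670) encodes tyrosine aminotransferase. Tat measured 892, 1096, 585 and 1507 CPM in the controls, against 2291, 2869 and 2936 CPM after LPS. The control mice differed from each other by more than the LPS treated mice did, and the groups did not overlap. For Tat the log2 fold change was 1.40 (SE 0.26, adjusted p = 0.00166). Hpd, Hgd, Gstz1 and Fah encode, in that order, the enzymes that carry the product on to fumarate and acetoacetate. Their log2 fold changes were -0.09, -0.14, -0.36 and -0.20, and the groups did not overlap in Gstz1 and Fah. Gstz1 passed as lower under total counts (adjusted p = 0.0461). Hpd, Hgd and Tat differed in level per length as well: in control mice they stood at 655, 143 and 424 CPM per kilobase, and in LPS treated mice at 616, 130 and 1122 CPM per kilobase.

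Histidine enzymes gave 1 higher, 1 lower and 2 that did not pass among 4 members, with a median log2 fold change of -0.09. Hal encodes histidine ammonia-lyase, the entry step. Hal stood at 232, 278, 307 and 377 CPM in control mice and at 376, 588 and 566 CPM in LPS treated mice. LPS replicate 1 was just under control replicate 4, and the other LPS treated mice exceeded the whole control range. The log2 fold change of Hal was 0.77 (SE 0.20, adjusted p = 0.0122). Amdhd1 encodes imidazolonepropionase, a later step, and is the neighbour of Hal on chromosome 10. Levels of Amdhd1 came to 210, 205, 200 and 215 CPM in control mice and 116, 160 and 168 CPM in LPS treated mice. The control mice were nearly equal, and all LPS treated mice were below them. Amdhd1 gave -0.49 (SE 0.15, adjusted p = 0.0344) as its log2 fold change. Both calls were lost without LPS replicate 2 or 3 and with those replicates summed, and that of Amdhd1 also without LPS replicate 1 or control replicate 4. The adjusted p rose to at most 0.0719 for Hal and 0.128 for Amdhd1. Uroc1, the urocanase between them, and Ftcd, the folate-linked last step, did not pass, with log2 fold changes of -0.25 and 0.07.

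Branched-chain enzymes had 4 of 8 members lower and 4 that did not pass, with a median log2 fold change of -0.42. The 4 that were lower act after the shared dehydrogenase complex. Hibadh (ENSMUSG00000029776) encodes the dehydrogenase of hydroxyisobutyrate in valine breakdown. The level of Hibadh was 496, 406, 428 and 373 CPM in control mice and 171, 193 and 196 CPM in LPS treated mice. The gap between the groups was wider than the spread within either of them. Hibadh changed by -1.19 (SE 0.15, adjusted p = 9.08e-05) on the log2 scale. Hibch, the hydrolase before it, Ivd, the isovaleryl-CoA dehydrogenase of leucine breakdown, and Mccc1, a subunit of the carboxylase that follows Ivd, had log2 fold changes of -0.52, -0.64 and -0.62. The groups did not overlap in these 3 genes. Ivd lost its call without LPS replicate 3 (adjusted p = 0.0525). Hibch lost it without control replicate 4 or any 1 of the LPS replicates and with LPS replicates 2 and 3 summed (adjusted p up to 0.0924).

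The dehydrogenase complex itself gave smaller values. Bckdha and Bckdhb, the subunits of its decarboxylase, had log2 fold changes of -0.05 and -0.11, and Dbt, its transacylase core, had -0.32, and none of these passed. Dbt passed as lower under total counts (adjusted p = 0.0472). In control mice Bckdha was at 21.0, 29.6, 50.4 and 47.5 CPM, and in LPS treated mice it was at 29.0, 37.6 and 41.5 CPM. Control replicates 3 and 4 were above, and control replicates 1 and 2 below, most of the LPS treated mice. Bckdk encodes the kinase that switches the complex off. Bckdk measured 8.56, 8.90, 5.93 and 5.81 CPM in the controls, against 9.68, 7.34 and 10.8 CPM after LPS. The groups overlapped, and the log2 fold change of 0.35 (SE 0.24) did not pass. By CPM per kilobase Bckdk was the scarcest member in control mice, at 1.98, while Bckdha stood at 19.5 and Dbt at 33.9.

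Proline and ornithine enzymes had 2 of 4 members lower and 2 that did not pass, with a median log2 fold change of -0.50. Prodh2 (ENSMUSG00000036892) encodes hydroxyproline dehydrogenase and had the lowest log2 fold change of all members. Prodh2 stood at 183, 191, 98.9 and 110 CPM in control mice and at 50.6, 41.6 and 36.0 CPM in LPS treated mice. Control replicates 1 and 2 were well above control replicates 3 and 4, and all of them were above the LPS treated mice. For Prodh2 the log2 fold change was -1.77 (SE 0.25, adjusted p = 0.000193). Aldh4a1, the dehydrogenase that completes the breakdown of proline and hydroxyproline to glutamate or its hydroxylated form, was lower too (log2 fold change -0.67, SE 0.16, adjusted p = 0.00714). Oat encodes ornithine aminotransferase. Levels of Oat came to 437, 402, 357 and 399 CPM in control mice and 273, 366 and 353 CPM in LPS treated mice. LPS replicate 2 was above the lowest control mouse and the other LPS treated mice were below it, and the log2 fold change of -0.27 did not pass. Prodh encodes proline dehydrogenase. The level of Prodh was 70.2, 99.0, 56.4 and 82.5 CPM in control mice and 56.7, 61.7 and 65.6 CPM in LPS treated mice. Control replicate 3 was the lowest of all mice, and the log2 fold change of -0.33 did not pass. It passed only without control replicate 3 (log2 fold change -0.455, adjusted p = 0.0449).

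All 3 lysine enzymes passed. Aass encodes the enzyme of the first steps of the saccharopine route of lysine breakdown. In control mice Aass was at 156, 164, 228 and 206 CPM, and in LPS treated mice it was at 311, 471 and 485 CPM. No control mouse reached the lowest LPS treated mouse. The log2 fold change of Aass was 1.16 (SE 0.19, adjusted p = 0.000668). Gcdh encodes glutaryl-CoA dehydrogenase, further along the path. Gcdh measured 525, 636, 550 and 506 CPM in the controls, against 265, 319 and 325 CPM after LPS. The groups were separate in the opposite direction. Gcdh gave -0.87 (SE 0.15, adjusted p = 0.00105) as its log2 fold change. Pipox, a peroxisomal oxidase of pipecolate and sarcosine, was lower as well. Pipox stood at 230, 190, 215 and 216 CPM in control mice and at 92.4, 99.8 and 106 CPM in LPS treated mice. All LPS treated mice were under 107 CPM and all control mice over 189 CPM. Pipox changed by -1.10 (SE 0.14, adjusted p = 8.77e-05) on the log2 scale. The asparaginases Asrgl1 and Aspg did not pass, with log2 fold changes of 0.07 and -0.45. Levels of Aspg came to 200, 166, 99.2 and 128 CPM in control mice and 103, 116 and 106 CPM in LPS treated mice. Control replicate 3 was below all LPS treated mice, and the other control mice were above them. Aspg passed with control replicate 3 left out (log2 fold change -0.61, adjusted p = 0.0197).

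Genes that encode related enzymes were compared within each mouse by their log2 ratio. With 0.1 or 2 CPM added in place of 0.5, the shift of Sds against Sdsl ran from -2.28 to -1.90 and that of Acmsd against Qprt from 2.08 to 2.25, and the pairs that passed were unchanged. Of 10 pairs, 7 had no overlap between the groups, each with the smallest p that the exact permutation test over 35 assignments can give (two-sided p = 0.0286, adjusted p = 0.0408 over the 10 pairs). With 1 mouse left out, the exact test could not reach an adjusted p under 0.05 in these pairs, and the directions held. The ratio of Got1 to Got2, the mitochondrial aspartate aminotransferase, was -2.43, -2.26, -2.51 and -2.09 in control mice and -0.63, 0.04 and 0.06 in LPS treated mice. Got2 itself stood at 332, 387, 439 and 392 CPM in control mice and at 340, 428 and 420 CPM in LPS treated mice. The cytosolic form shifted against the mitochondrial one by 2.14 on the log2 scale. For Gpt against Gpt2 the shift was -1.01, with ratios of -0.98 to -0.74 in control mice and -2.15 to -1.64 in LPS treated mice. For aspartate aminotransferase the cytosolic transcript gained on the mitochondrial one, and for alanine aminotransferase the mitochondrial one gained.

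Sds against Sdsl shifted by -2.19: the ratio ran from 2.98 to 4.02 in control mice and from 1.31 to 1.43 in LPS treated mice. Prodh against Prodh2 shifted by 1.41, from ratios of -1.37 to -0.41 to ratios of 0.16 to 0.86. Shmt1 against Shmt2, its mitochondrial counterpart, shifted by -0.41. The level of Shmt2 was 117, 109, 119 and 109 CPM in control mice and 84.9, 65.3 and 73.1 CPM in LPS treated mice. Shmt2 was itself lower (log2 fold change -0.61, adjusted p = 0.00636 in edgeR), so both forms were lower, the cytosolic one by more.

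At branch points of the tryptophan path, Acmsd against Qprt, the enzyme that commits quinolinate to NAD, shifted by 2.21. The ratio was -3.33, -4.41, -2.90 and -3.12 in control mice and -1.39, -1.26 and -1.05 in LPS treated mice. The LPS treated mice were all above the control mice. In control mice Qprt was at 130, 146, 145 and 144 CPM, and in LPS treated mice it was at 124, 160 and 158 CPM. Qprt did not pass on its own, with a log2 fold change of 0.06. Tdo2 against Ido2, another enzyme that opens the tryptophan ring, shifted by 1.92. Ido2 measured 65.2, 58.6, 72.5 and 77.6 CPM in the controls, against 42.4, 42.3 and 49.8 CPM after LPS. Ido2 was lower in each LPS treated mouse (log2 fold change -0.61, adjusted p = 0.00829 in edgeR). Ido1 was at 0 counts in all 7 samples, which allows a level of up to 0.138 to 0.212 CPM. The groups overlapped for Bhmt against Bhmt2 (shift 0.51, exact adjusted p = 0.143), Agxt against Agxt2 (-0.29, exact adjusted p = 0.159) and Bckdk against Bckdha (0.31, exact adjusted p = 0.571).

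**Figure D3:**
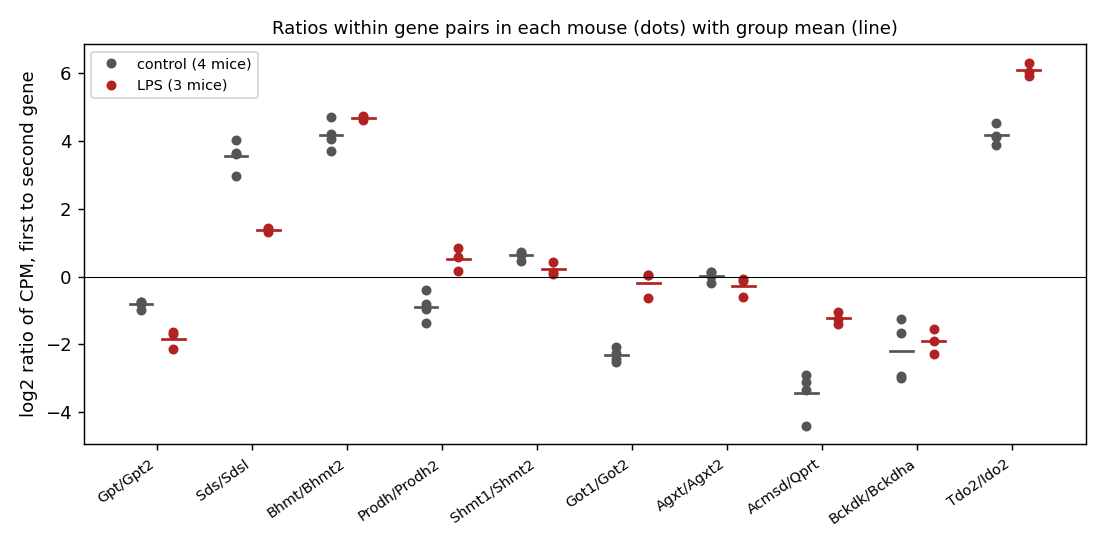
Log2 ratio of CPM (with 0.5 added) of the first to the second gene of 10 pairs in each of 4 control mice (grey) and 3 LPS treated mice (red), with lines at the group means. In 7 pairs the groups do not overlap, and Got1/Got2 moves from a mean of -2.32 to -0.18.

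Within the LPS group, most members and most hepatocyte markers were lowest in the same mouse. In 47 of the 53 members, LPS replicate 1 had the lowest level of the 3 LPS treated mice, as it did in 39.7% of all genes tested. Among the 12 hepatocyte markers it was also the lowest in all but Ttr, so the pattern was not particular to the members. The median SD of log2 CPM among the members was 0.22 in control mice and 0.21 in LPS treated mice, against 0.30 and 0.21 over all genes tested. Without LPS replicate 1, 12 members were lower and 16 were higher.

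By compartment, a grouping made after the values were seen, calls fell in both directions. Of 21 mitochondrial enzymes, 8 were lower and 4 higher, with a median log2 fold change of -0.31. Of 30 enzymes that are mainly cytosolic, 5 were lower and 12 higher, with a median of 0.09. The remaining 2, Agxt and Pipox, were assigned to peroxisomes and were both lower. Of all genes tested 13.0% were lower and 13.3% higher. The difference between compartments was not tested. With 1 mouse left out, calls were lost among the mitochondrial enzymes (Ivd, Hibch and Gldc), among the mainly cytosolic ones (Afmid, Amdhd1, Csad, Hal, Cth and Cdo1) and for Agxt.

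Some members lie side by side in the genome (RefSeq, GRCm38.p6). Sdsl and Sds are neighbours on chromosome 5 and were both higher. Hal and Amdhd1 are neighbours on chromosome 10 and went opposite ways, with log2 fold changes of 0.77 and -0.49. Bhmt, Bhmt2 and Dmgdh stand in a row on chromosome 13, and the starts of Bhmt2 and Dmgdh are 133 bases apart on opposite strands. Dmgdh stood at 302, 288, 401 and 352 CPM in control mice and at 242, 322 and 329 CPM in LPS treated mice. Those values overlapped. The log2 ratio of Bhmt2 to Dmgdh, a pair chosen after the values were seen, was -0.72, -0.62, -1.35 and -0.82 in control mice and 0.51, 0.39 and 0.32 in LPS treated mice. The means differed by 1.28.

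Promoter sequences, from 250 bases before to 50 after the start, came from a set drawn from RefSeq (GRCm38.p6). The set used held 49 promoters of 45 of the 53 members. It held none for Cth, Kynu, Gpt, Sdsl, Sds, Cdo1, Dbt and Mat1a, whatever RefSeq itself lists for them. Each promoter was searched on both strands for 6 short motifs. TATAAA, the letters of a TATA box, was counted at any position of the window and on either strand. It was in 14.3% of the member promoters and in 13.6% of all 32851 promoters. It was in 2 of the 11 promoters of members that were higher (Hal and Tdo2) and in 0 of the 16 promoters of members that were lower, and in 5 of the 22 promoters of members that did not pass. AGAACA, a hexamer bound by the glucocorticoid receptor, was in 10.2% against 19% of all promoters, and it was in 1 of the 11 promoters of members that were higher (Kmo), 2 of the 16 of members that were lower and 2 of the 22 of members that did not pass. GTTAAT, a hexamer of HNF1 sites, was in 8.16% against 7.1%, and CAAAG, the core of HNF4 sites, was in 59.2% against 53.9%. TTGCAA, which resembles a C/EBP site, was in 10.2% against 6.23%. It was in 4 of the 16 promoters of members that were lower (Agxt, Gcdh, Ivd and Prodh2), in 1 of the 11 of members that were higher (Gldc) and in 0 of the 22 of members that did not pass. The palindrome TTGCGCAA, a C/EBP site, was in 0 of the 49 and in 0.183% of all promoters. A match describes letters in these windows and shows no binding.

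The sequences that follow are shown because Tdo2 and Bhmt, chosen after their values were seen, were both higher by more than 2-fold and have a promoter entry, and because Bhmt2, which was higher, and Dmgdh, which did not pass, share 1 short stretch. They are printed from 5′ to 3′ on the strand of the gene, or on the plus strand for the shared stretch. Capitals mark TATAAA in Tdo2, where it lies near the upstream end and far from the start (chr3:81975729-81975978, minus strand) and CAAAG or its reverse complement in Bhmt (chr13:93637759-93638008, minus strand). The stretch between Bhmt2 and Dmgdh (chr13:93674303-93674435, plus strand) held none of the 6 motifs.
Tdo2: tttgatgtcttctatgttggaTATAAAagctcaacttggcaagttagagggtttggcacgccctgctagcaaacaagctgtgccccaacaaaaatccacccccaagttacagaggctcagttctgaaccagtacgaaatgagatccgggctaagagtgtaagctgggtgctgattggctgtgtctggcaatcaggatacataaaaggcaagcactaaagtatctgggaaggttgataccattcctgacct
Bhmt: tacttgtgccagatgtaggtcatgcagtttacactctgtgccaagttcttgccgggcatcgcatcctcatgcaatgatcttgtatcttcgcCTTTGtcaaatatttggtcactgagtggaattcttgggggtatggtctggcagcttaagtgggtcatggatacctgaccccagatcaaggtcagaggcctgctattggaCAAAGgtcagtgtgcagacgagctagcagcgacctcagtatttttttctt
Bhmt2-Dmgdh: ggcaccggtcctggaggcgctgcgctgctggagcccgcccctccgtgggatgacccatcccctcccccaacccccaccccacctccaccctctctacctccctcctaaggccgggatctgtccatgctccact

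Reads that fit several genes, and overlapping genes, limit some levels, because the counting of such reads was not described. By windows of 50 bases of their transcripts (GENCODE M21), 6 members shared more than 20% of the windows with another gene. These were Ahcy (68.7%, with predicted genes such as Gm4737), Bckdha (49.6%, with its overlapping neighbour B3gnt8), Afmid (41.3%, with Gm20708 and Tk1), Aldh4a1 (30%, with Gm21969), Bhmt (26.1%, with Gm5096 and Bhmt-ps1) and Sds (21.2%, with Plbd2). The levels of these 6 are uncertain to that extent. Bhmt and Bhmt2 shared 10 windows, and Sds and Sdsl, Gpt and Gpt2, Prodh and Prodh2, and Agxt and Agxt2 shared 0.

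Other enzymes of the same pathways moved mainly one way. Of 55 such genes, 50 were tested, 26 were lower, 1 was higher and 23 did not pass, with a median log2 fold change of -0.51. Over all genes tested, 13.0% were lower and 13.3% higher. Without LPS replicate 2 only 17 were lower, and with LPS replicates 2 and 3 summed 20 were. Gch1, the entry enzyme of biopterin synthesis, had 94.3, 108, 109 and 118 CPM in control mice and 36.8, 49.9 and 41.0 CPM in LPS treated mice. Its log2 fold change was -1.34 (SE 0.15, adjusted p = 4.12e-05). Every LPS treated mouse was below the control range. Ddc encodes the aromatic amino acid decarboxylase. Levels of Ddc came to 94.2, 86.7, 130 and 140 CPM in control mice and 41.2, 51.1 and 49.7 CPM in LPS treated mice. It was lower as well (log2 fold change -1.25, SE 0.19, adjusted p = 0.000369). Grhpr, which reduces glyoxylate and hydroxypyruvate, was the gene that was higher. The level of Grhpr was 123, 151, 140 and 145 CPM in control mice and 228, 324 and 312 CPM in LPS treated mice. The groups lay apart. For Grhpr the log2 fold change was 1.05 (SE 0.16, adjusted p = 0.000329). Of the 15 other branched-chain and propionate enzymes tested, 10 were lower, and the median of -0.58 stood beside -0.42 for the 8 branched-chain members.

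Amino acid transporters of the plasma membrane gave 5 higher, 1 lower and 10 that did not pass among the 16 tested of 17. Over all genes tested, 13.3% were higher and 13.0% lower. Slc7a7, Slc7a8 and Slc43a1, which were among the 5, were scarce: their highest values in any mouse were 8.76, 8.85 and 8.47 CPM. Slc3a1 encodes the heavy subunit of a carrier of cystine and basic amino acids. In control mice Slc3a1 was at 8.07, 10.2, 15.3 and 11.2 CPM, and in LPS treated mice it was at 116, 202 and 197 CPM. The lowest LPS treated mouse was far above all control mice. The log2 fold change of Slc3a1 was 3.94 (SE 0.24, adjusted p = 2e-07). Slc6a12 encodes a carrier of betaine, the methyl source of Bhmt. Slc6a12 measured 43.4, 44.4, 39.8 and 42.6 CPM in the controls, against 61.6, 62.1 and 69.8 CPM after LPS. Each LPS treated mouse was above the control range. Slc6a12 gave 0.60 (SE 0.13, adjusted p = 0.00402) as its log2 fold change. Slc7a7 encodes a subunit of a carrier of basic amino acids. Slc7a7 stood at 2.90, 2.52, 2.63 and 1.79 CPM in control mice and at 8.76, 4.96 and 5.35 CPM in LPS treated mice. It was higher at low levels (log2 fold change 1.38, SE 0.31, adjusted p = 0.00555). Slc1a2, a glutamate carrier, was lower. Levels of Slc1a2 came to 62.6, 91.6, 88.1 and 96.9 CPM in control mice and 58.8, 40.6 and 48.2 CPM in LPS treated mice. LPS replicate 1 was just under the lowest control mouse. Slc1a2 changed by -0.79 (SE 0.18, adjusted p = 0.007) on the log2 scale. That call was lost without LPS replicate 2 (adjusted p = 0.0522), and 2 transporters were lower without control replicate 1 or 2.

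Whole liver was sequenced, so fewer cells of a type and less RNA per cell cannot be told apart in any of these values. Hepatocyte markers summed to 82760, 84450, 111100 and 96030 CPM in control mice and to 68160, 79290 and 79560 CPM in LPS treated mice, with none at 0. By mean CPM Alb led in control mice and Trf in LPS treated mice. Of the 12, 5 were lower and 2 were higher. Pericentral hepatocyte markers, genes of cells near the central vein, were lower in 6 of 7. Among the 6 was Slc1a2, which is also the transporter that was lower, and the marker that did not pass was Cyp2e1 (log2 fold change -0.23, adjusted p = 0.46). Their sum was 6664, 9992, 9590 and 8122 CPM in control mice and 5776, 5944 and 6045 CPM in LPS treated mice, and Cyp2e1 made up 77.7% and 96.0% of the group means. Of the 6 periportal markers, where much of amino acid breakdown takes place, 2 were higher and 1 was lower. They summed to 4174, 4266, 4900 and 6309 CPM and to 7144, 9572 and 9687 CPM. The sum of the periportal list, like that of the members, was lowest in LPS replicate 1 among LPS treated mice and did not overlap between the groups.

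Markers of other cells moved with the groups too. All 6 neutrophil markers tested of 7 were higher, and their sum went from 5.17, 4.04, 1.53 and 2.855 CPM to 199, 141 and 140 CPM. By mean CPM Csf3r led in control mice and S100a9 in LPS treated mice. Ly6g, a defining neutrophil marker, was at 0 in all control mice and in LPS replicate 2 and at most 0.32 CPM in the others. Macrophage and Kupffer cell markers summed to 105, 162, 145 and 101 CPM in control mice and to 610, 111 and 111 CPM in LPS treated mice. LPS replicate 1, the lowest of its group in most members, stood apart in this list. Of the 8 macrophage markers 3 were higher and 1 was lower. Clec4f had the highest mean CPM of them in control mice and Marco in LPS treated mice. Endothelial markers, 2 higher and 2 lower of 7, summed to 122, 152, 92.0 and 125 CPM and to 149, 89.0 and 87.3 CPM. By mean CPM Clec4g led in control mice and Pecam1 in LPS treated mice. Scaling without mitochondrial genes gave 15 members lower and 16 higher. The part of the marker lists in the results on the members was not tested.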

How the data were processed

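Polyadenylated RNA from mouse liver was sequenced as strand-specific libraries in 7 samples, 4 control and 3 LPS treated, grouped by their labels. The table that the authors deposited holds counts that were not normalized, as integers, for 56691 genes. Per the labels, reads were trimmed with cutadapt 1.9.1, aligned with HISAT2 2.2.1 to GRCm39 and counted with a tool set that lists HTSeq 0.6.1. The annotation, the strand setting and the rule for reads with more than 1 fitting gene were not found in the labels or methods.

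Counts were filtered with filterByExpr, scaled by TMM and tested with the quasi-likelihood test of edgeR 4.0.16 in R 4.3.3, where the model held condition alone and p was adjusted by Benjamini-Hochberg over 13683 genes. The SE was derived from the F statistic. CPM used the TMM-scaled library size. Log2 ratios of gene pairs used CPM with 0.5 added and an exact permutation test over 35 assignments. Levels per kilobase used merged exon lengths of GENCODE M21.

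Genes given with values in every sample were, in each amino acid group, the passing members with the smallest p and the largest change, the member with the highest mean CPM, members that passed against most of their group, members of the pairs, and genes with 1 of the 3 smallest p in each direction among other enzymes and among transporters. The members and lists were chosen with earlier results of these data known. The alternatives used total counts, RLE factors, DESeq2 1.42.0, no mitochondrial genes, at least 10 counts in every sample, no filter, an adjusted p below 0.01, a replicate block, pseudocounts of 0.1 and 2, LPS replicates 2 and 3 summed, and leaving out each mouse.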

Additional observations from a re-analysis of the deposited data

Results flagged for a closer look

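Among the members, other amino acid enzymes and transporters, 119 genes were checked for a control mouse far from the other control mice, and 2 stood out, neither of them a member. Qprt was at 130 CPM in control replicate 1 and between 144 and 146 CPM in the other control mice. Slc43a1, a carrier of large neutral amino acids, was at 4.10 CPM in control replicate 1 and between 2.52 and 2.75 CPM in the others. Chance alone gives such a gap in about 1 of 20 groups of this size.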

How the results depend on the processing

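Of the 31 members that passed, 20 passed in all 16 alternatives, 11 lost significance in at least 1, and none changed direction. Of the 22 that did not pass, 5 passed in at least 1. Members lower were 15, but 8 at an adjusted p below 0.01, and 9 to 16 with each mouse left out. Members higher stayed between 12 and 17.

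At an adjusted p below 0.01, 993 of all genes tested were lower and 1091 higher, 17 other amino acid enzymes were lower, and lower members numbered 1 for tryptophan, 0 for histidine, 0 for methionine and cysteine, 0 for transaminases and 1 for branched-chain enzymes, with 0 higher for histidine and 3 for methionine and cysteine. With each mouse left out, all genes lower ranged from 1146 to 1868, other enzymes lower from 17 to 26 and transporters lower from 0 to 2. Lower members ranged from 1 to 2 for tryptophan, 0 to 1 for histidine, 0 to 1 for methionine and cysteine, 0 to 1 for transaminases, 2 to 4 for branched-chain enzymes and 0 to 1 for asparagine, and higher members from 0 to 1 for histidine and 3 to 5 for methionine and cysteine. With LPS replicates 2 and 3 summed, lower members were 1 for tryptophan, 0 for histidine, 0 for methionine and cysteine and 0 for transaminases, and higher members 0 for histidine and 3 for methionine and cysteine. Transporters lower were 2 with DESeq2, total counts, no filter and at least 10 counts in every sample, and total counts gave 1 lower tyrosine member.

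Control and LPS mice that share a replicate number are different animals, and their deviations correlated at 0.205, -0.06 and 0.08 for numbers 1 to 3, so the numbers did not pair them; not every sample correlated best with its own number. The replicate block, a fit that also leaves out control replicate 4, gave 12 members lower and 16 higher. Leaving out control replicate 4 alone gave 10 lower and 15 higher. In the replicate block lower members were 1 for tryptophan, 0 for histidine and 0 for methionine and cysteine, Bckdha stood at 0.17, and Ahcy passed as higher (adjusted p = 0.0445).

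The sign changed only in genes that did not pass. Under total counts the log2 fold changes were -0.032 (Kynu), -0.056 (Ftcd), -0.09 (Gnmt), -0.091 (Gpt), -0.058 (Asrgl1), -0.102 (Got2) and -0.073 (Qprt). With LPS replicates 2 and 3 summed they were -0.036 (Gnmt), -0.032 (Gpt) and -0.011 (Got2). With each mouse left out they ranged from -0.021 to 0.203 (Ftcd), -0.065 to 0.273 (Gnmt), -0.045 to 0.234 (Gpt), -0.243 to 0.131 (Bckdha), -0.005 to 0.179 (Asrgl1), -0.041 to 0.134 (Got2) and -0.001 to 0.173 (Qprt).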
